A study of Rattus norvegicus with 4 samples.

Results

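Collagens, laminins, nidogens, fibronectin and Sparc are the structural genes of the extracellular matrix and of basement membranes. They were taken from the gene list of a single-cell RNA-seq matrix of rat hippocampus by symbol: every collagen alpha chain, every laminin alpha, beta or gamma chain, and Nid1, Nid2, Fn1 and Sparc. Of the 32623 genes in the matrix, 56 matched by symbol and 33 had at least 100 unique molecular identifiers (UMIs, 1 for each captured transcript) over all barcodes. These 33 members were 22 collagen genes, 7 laminin genes, Nid1, Nid2, Fn1 and Sparc. Col8a2 was just inside the minimum with 103 UMIs and Lamc3 just outside it with 91; the other genes under it, among them Col4a6 with 67 UMIs, are not described further. The perlecan gene Hspg2, Col1a2 and Col6a3 were not analysed here.

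A basement membrane is a thin sheet that surrounds every brain vessel. Collagen IV chains join in threes into a network, laminins join as one alpha, one beta and one gamma chain into a second network on the cell surface, and nidogens link both. In brain capillaries, endothelial cells and pericytes share such a sheet, and astrocyte end-feet add another around it, while fibrillar collagens belong mainly to the fibroblasts of larger vessels and meninges.

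The tissue was hippocampus of wild type rats, and the 4 titled samples are NC (a negative control), MCAO (occlusion of the middle cerebral artery on one side), DEPR and MD; for both of the last the label is chronic stress, and the abbreviation MD is not explained. The submitters' design describes male adult Sprague Dawley rats aged 10 to 12 months in 2 groups of 10, all with arterial occlusion and 1 group with added chronic stress, of which 5 per group were sequenced. It names no unoperated control and so differs from the 4 titles. Each title is 1 library of dissociated cells, and barcodes carry suffixes 1 to 4 that no source used here ties to a title; they are called sets 1 to 4 below, are unassigned to any group, and were not tested against each other.

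After filtering, 27937 cells remained, with 5186 to 7982 cells in sets 1 to 3 and 8426 in set 4, and pairs of sets shared 9 to 27 barcode sequences. Cells were gated by lists of marker genes that hold no member. The endothelial gate held 1151, 464, 650 and 1088 cells in sets 1 to 4, the pericyte gate 111, 48, 114 and 152, and the smooth muscle gate 78, 44, 88 and 126. The gates rest on a score with a margin: 140 of the 3353 endothelial, 65 of the 425 pericyte and 47 of the 336 smooth muscle cells lay close to it. Summed pericyte markers reached 12434 to 14436 CPM (UMIs per 1000000 UMIs of a gate's summed cells) in the pericyte gate, 1443 to 2217 in the smooth muscle gate and 62.5 to 258 in the endothelial gate. Smooth muscle markers reached 44640 to 50504 in their own gate and 1279 to 1876 in the pericyte gate, where endothelial markers stood at 1030 to 1580. The part of these crossings in the levels below was not tested. Sets 1 and 2 fell largely into other clusters than sets 3 and 4 when cells were clustered without aligning the sets: 1 oligodendrocyte cluster held 1232 and 2335 cells of sets 1 and 2 against 18 and 15 of sets 3 and 4, and another held 17 and 23 against 1698 and 2078. Levels below are CPM of the summed cells of a gate in a set. Intervals are exact at 95% and cover counting error only, since each set is 1 library, and because the assay reads the 3' end, levels are compared between cell classes for a gene and not between genes.

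The members together took 283674 UMIs, 0.157% of all, of which Sparc gave 201394 and Fn1 30048. Without those 2 genes, the summed level was, among the 10 classes compared, highest in the pericyte gate in every set, at 3094, 2835, 3668 and 3100 CPM in sets 1 to 4. Smooth muscle followed at 1671 to 1966 and endothelium at 662 to 883. Ependymal cells, the ciliated lining of the ventricles, had 570 to 1270, oligodendrocytes 104 to 129 and microglia 69.9 to 147. The 3 gates of the vessel wall were therefore ordered the same way in the 4 sets, with no overlap between them.

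**Figure D1:**
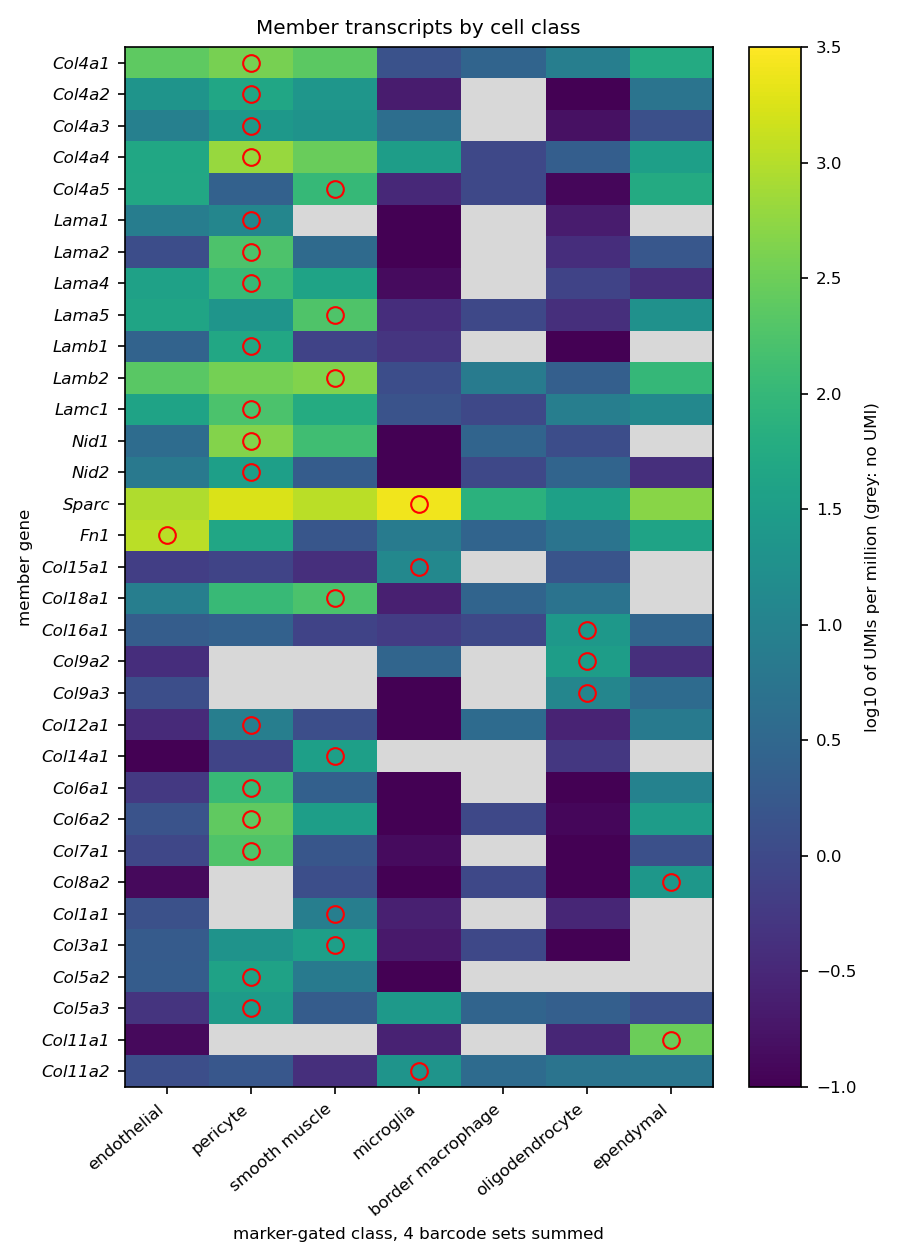
Level of each of the 33 members (rows) in 7 marker-gated classes (columns), as log10 of CPM with the 4 sets summed; grey cells had no UMI and a red ring marks the highest of the classes drawn. Rings gather in the pericyte and smooth muscle columns, while Sparc, Col15a1 and Col11a2 peak in microglia and Col9a2, Col9a3 and Col16a1 in oligodendrocytes.

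Each member was placed in the class with its highest level among 10 classes. Of the 33, 17 fell to pericytes, 7 to smooth muscle, 3 to microglia, 3 to oligodendrocytes, 2 to ependymal cells and 1 to endothelium. The same placement was not made for all genes, so these counts have no background share beside them. Some placements were narrow: Lama1 in pericytes rested on 14 UMIs, and Col5a3 was at 29.4 CPM in pericytes against 26.1 in microglia. The fibroblast gate, with 14 cells and 79003 UMIs over the 4 sets, was not one of the 10, and every statement on a leading or highest class leaves it out. In that gate 12 of the 33 members stood above their leading class, 7 of them on at least 10 UMIs: Col1a1 (2000 CPM), Col12a1 (1202), Col3a1 (354), Col18a1 (304), Lama1 (240), Col8a2 (240) and Col4a5 (228). The placement was the same in all 4 sets for 11 of the pericyte members and for 4 of the smooth muscle members. Endothelial cells nevertheless held most of the UMIs of many members, being 3353 cells against 425 and 336: 76.9% of the gated Col4a1 UMIs were endothelial, against 6.21% in pericytes and 7.76% in smooth muscle.

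Col4a1 and Col4a2 encode the chains of the network present in nearly all basement membranes. Col4a1 stood at 258, 215, 210 and 265 CPM in endothelium and at 195, 211, 220 and 275 in smooth muscle in sets 1 to 4, so these gates overlapped. In pericytes it stood at 572, 536, 272 and 266, far above both other gates in sets 1 and 2 and near them in sets 3 and 4. Col4a2 in pericytes was likewise higher in sets 1 and 2, at 71.8, 98.7, 21.4 and 25.8 on only 24, 14, 7 and 10 UMIs. In endothelium it was at 24.6, 22.7, 12.5 and 19.7 and in smooth muscle at 17.6 to 29.8.

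The collagen IV genes Col4a1 and Col4a2 lie head to head in the rat genome, as do Col4a3 and Col4a4, which is why their start regions are shown. In RefSeq (build GRCr8, which is not the build of the count files) the starts of Col4a1 and Col4a2 are 77 bases apart on opposite strands, and those of Col4a3 and Col4a4 are 413 bases apart. The windows run from 250 bases before each start to 50 after it, 5′ to 3′ on the gene's own strand, and capitals mark the stretch that the windows of a pair share, 176 bases for the first pair and 88 for the second. Their positions are chr16:84885347-84885646 (+) for Col4a1, chr16:84885471-84885770 (-) for Col4a2, chr9:91323740-91324039 (+) for Col4a3 and chr9:91323528-91323827 (-) for Col4a4.
Col4a1: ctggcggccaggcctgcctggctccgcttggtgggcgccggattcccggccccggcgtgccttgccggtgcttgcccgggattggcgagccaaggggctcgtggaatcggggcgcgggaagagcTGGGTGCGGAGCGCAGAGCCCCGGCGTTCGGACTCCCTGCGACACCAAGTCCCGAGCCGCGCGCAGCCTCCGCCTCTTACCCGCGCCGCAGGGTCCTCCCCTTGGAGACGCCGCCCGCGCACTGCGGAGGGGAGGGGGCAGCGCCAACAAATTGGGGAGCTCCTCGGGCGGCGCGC
Col4a2: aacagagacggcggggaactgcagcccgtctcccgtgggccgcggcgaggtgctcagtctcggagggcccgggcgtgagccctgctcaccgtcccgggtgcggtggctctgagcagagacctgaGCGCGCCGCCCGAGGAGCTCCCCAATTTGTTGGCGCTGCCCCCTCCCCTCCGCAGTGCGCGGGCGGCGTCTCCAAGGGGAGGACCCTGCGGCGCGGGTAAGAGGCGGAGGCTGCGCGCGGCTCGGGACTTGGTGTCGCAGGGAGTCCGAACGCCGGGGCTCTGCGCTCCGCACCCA
Col4a3: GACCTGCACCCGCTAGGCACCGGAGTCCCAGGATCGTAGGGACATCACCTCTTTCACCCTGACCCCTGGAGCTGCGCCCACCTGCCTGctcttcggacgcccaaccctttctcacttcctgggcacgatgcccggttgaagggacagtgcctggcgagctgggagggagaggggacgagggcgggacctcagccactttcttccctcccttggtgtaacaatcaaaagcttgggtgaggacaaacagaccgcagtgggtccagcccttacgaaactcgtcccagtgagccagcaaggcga
Col4a4: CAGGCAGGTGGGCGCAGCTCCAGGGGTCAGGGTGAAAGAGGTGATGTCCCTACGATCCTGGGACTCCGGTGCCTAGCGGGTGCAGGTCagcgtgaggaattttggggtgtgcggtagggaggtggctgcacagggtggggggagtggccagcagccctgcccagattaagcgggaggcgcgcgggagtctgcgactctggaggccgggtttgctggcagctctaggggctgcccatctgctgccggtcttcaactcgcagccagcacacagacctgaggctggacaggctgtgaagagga

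Guanine and cytosine make up 75.0% and 73.7% of the Col4a1 and Col4a2 windows and 62.0% and 65.3% of those of Col4a3 and Col4a4. The GC box GGGCGG, on either strand, occurs 2 times in the Col4a1 window, 2 times in that of Col4a2, once in that of Col4a3 and not in that of Col4a4. The letters CCAAT, on either strand, occur 2 times in the Col4a1 window and once in that of Col4a2, and TATAAA occurs in none of the 4. Of 27457 rat start regions of the same length, 34.9% hold GGGCGG, 37.7% hold CCAAT and 14.3% hold TATAAA. Start regions were at hand for 24 of the 33 members, and 16, 7 and 1 of these hold the 3 motifs, none of which contains another; such matches describe letters, not binding.

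Within the first pair, the share of Col4a1 among the UMIs of both genes had overlapping intervals in the 3 gates of the vessel wall. It was 92.1% in endothelium (interval 91.4 to 92.7%), 89.3% in pericytes (86.3 to 91.8%) and 91.0% in smooth muscle (88.5 to 93.1%), with the sets summed. Oligodendrocytes differed: they had 422 UMIs of Col4a1 and 2 of Col4a2, a Col4a1 share of 99.5% (98.3 to 99.9%), and in RefSeq 2 non-coding RNA genes overlap Col4a1. Whether their reads were counted as Col4a1 was not tested, since no source used here states how strand was used in counting.

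Col4a4 and Col4a3 encode chains of a second network, best known from the filters of the kidney. Col4a4 was high in the cells around the endothelium, with 482, 550, 743 and 689 CPM in pericytes of sets 1 to 4 and 281, 274, 346 and 284 in smooth muscle. Endothelial values were 43.3, 41.8, 50.3 and 55.1. No set of one gate overlapped another gate, and pericytes and smooth muscle summed exceeded endothelium by a median log2 ratio of 3.07 (2.88 to 3.24 over sets). Microglia carried 40.8% of the gated Col4a4 UMIs at 17.5, 18.7, 45.9 and 46.3 CPM.

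Col4a3, its neighbour, was at 6.95, 8.13, 9.45 and 13.6 CPM in endothelium of sets 1 to 4, at 5.99, 7.05, 39.7 and 36.1 in pericytes and at 26.4, 3.19, 22.3 and 21.0 in smooth muscle. The gates overlapped, and pericytes and smooth muscle summed stood above endothelium in sets 1, 3 and 4 and below it in set 2 (median log2 ratio 1.17, not called). The share of Col4a4 among both genes was 83.7% in endothelium (81.6 to 85.7%), 96.1% in pericytes (94.5 to 97.4%) and 93.6% in smooth muscle (91.7 to 95.2%). With the sets summed, the endothelial interval overlapped neither other interval. In set 1 it overlapped that of smooth muscle, at 82.8 to 89.1% against 86.3 to 95.1%. Pericytes gave 30 Col4a3 UMIs, 2, 1, 13 and 14 by set. A RefSeq non-coding RNA gene overlaps Col4a4, and its part in the Col4a4 count was not tested.

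Col4a5, a partner chain in the networks of Col4a3 and Col4a6, divided the cells around the endothelium. Smooth muscle had 82.6, 109, 98.1 and 117 CPM and endothelium 46.6, 32.0, 55.4 and 63.3. Pericytes had 3 UMIs in all, with 0 in sets 2 and 3. Ependymal cells, at 49.4 to 71.8, overlapped endothelium.

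**Figure D2:**
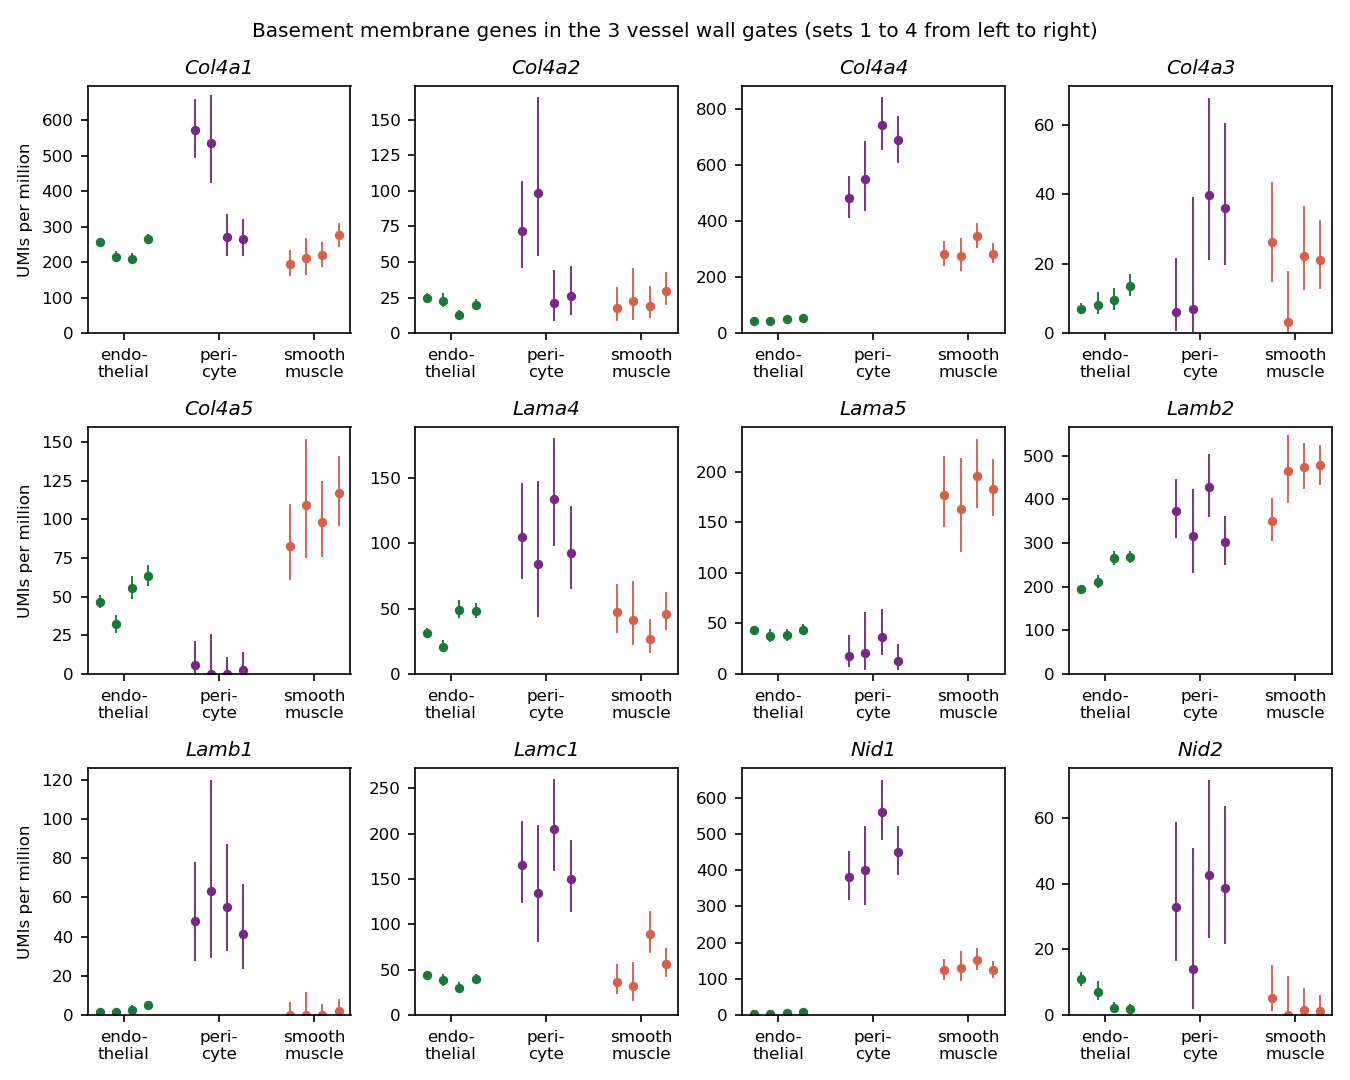
CPM of 12 basement membrane genes in the endothelial, pericyte and smooth muscle gates; the 4 points of a gate are sets 1 to 4 from left to right and bars are exact 95% Poisson intervals. Col4a4, Nid1, Lamb1 and Lamc1 stand highest in pericytes, Lama5 and Col4a5 in smooth muscle, and the Col4a1 points of the gates overlap except in pericytes of sets 1 and 2.

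Laminin alpha chains set the identity of a laminin, and those of the vessel wall differed between its cell types. Lama4, the chain laid down along all vessels, stood at 105, 84.6, 134 and 92.9 CPM in pericytes, at 31.5, 21.0, 49.3 and 48.4 in endothelium and at 47.4, 41.5, 26.8 and 46.3 in smooth muscle. Lama5, a chain of mature vessel membranes, was at 177, 163, 196 and 183 in smooth muscle and at 43.8, 37.3, 38.3 and 43.9 in endothelium. In pericytes it was at 18.0, 21.2, 36.7 and 12.9. Pericytes thus led for Lama4 and smooth muscle for Lama5 in every set, and their levels over the sets did not overlap those of the other gates. This compares levels and not their intervals, and pericyte Lama4 in set 2 rested on 12 UMIs.

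The share of Lama4 among Lama4 and Lama5 UMIs was 83% in pericytes (76.1 to 88.6%), 46.9% in endothelium (44.6 to 49.2%) and 18.2% in smooth muscle (15 to 21.7%). Within endothelium it was 41.8% and 36.1% in sets 1 and 2 and 56.3% and 52.4% in sets 3 and 4. The order of the 3 gates was the same in each set. In RefSeq 2 non-coding RNA genes and a pseudogene overlap Lama4.

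Lama2 and Lama1 are alpha chains of another pair. Lama2, known from muscle and from the glial side of brain vessels, was at 198, 113, 190 and 165 CPM in pericytes against 1.95 or less in endothelium and 6.62 or less in smooth muscle, and 75.6% of its gated UMIs were from pericytes. Lama1 was at 5.56, 5.89, 11.7 and 11.2 in endothelium and at 15, 7.05, 18.3 and 5.16 in pericytes, the latter on 14 UMIs. Smooth muscle had no Lama1 UMI in 2461312 UMIs, which allows a level of up to 1.22 CPM (3 counts).

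Lamb2 and Lamb1 are alternative beta chains. Lamb2 was at 351, 466, 474 and 478 CPM in smooth muscle, at 374, 317, 428 and 302 in pericytes and at 194, 211, 265 and 269 in endothelium. The first pair overlapped and both lay above endothelium in every set, by a median log2 ratio of 0.84 for the gates summed, short of 2-fold. Lamb1 was at 47.9, 63.5, 55.0 and 41.3 in pericytes and at 1.69 to 4.96 in endothelium, and smooth muscle had 2 UMIs. Lamb2 made up 87.9% of the pair in pericytes (84.6 to 90.6%), 98.8% in endothelium (98.5 to 99.1%) and 99.8% in smooth muscle (99.3 to 100.0%). Lamc1, the common gamma chain, was at 165, 134, 205 and 150 in pericytes, at 36.9, 31.9, 89.2 and 56.3 in smooth muscle and at 44.4, 38.4, 30.1 and 40.0 in endothelium. Pericytes were highest in each set.

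Nidogens, which link the laminin and collagen networks, also divided by cell type. Nid1 was at 380, 402, 562 and 451 CPM in pericytes, at 123, 131, 153 and 125 in smooth muscle and at 1.79, 3.36, 5.11 and 7.09 in endothelium. The gates did not overlap, and the pericyte and smooth muscle gates together exceeded endothelium by a median log2 ratio of 5.91 (4.97 to 6.93). Nid2 was at 32.9, 14.1, 42.8 and 38.7 in pericytes on 42 UMIs, at 10.9, 7.01, 2.04 and 1.77 in endothelium and at 2.58 to 3.95 in oligodendrocytes. With the sets summed, Nid1 made up 92.8% of the nidogen UMIs in pericytes (90.4 to 94.8%) and 98.5% in smooth muscle (96.5 to 99.5%). It made up 37.0% in endothelium (31.0 to 43.4%) and 29.4% in oligodendrocytes (23.2 to 36.3%). The endothelial sum hides unlike sets, at 14.1, 32.4, 71.4 and 80.0% in sets 1 to 4.

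**Figure D3:**
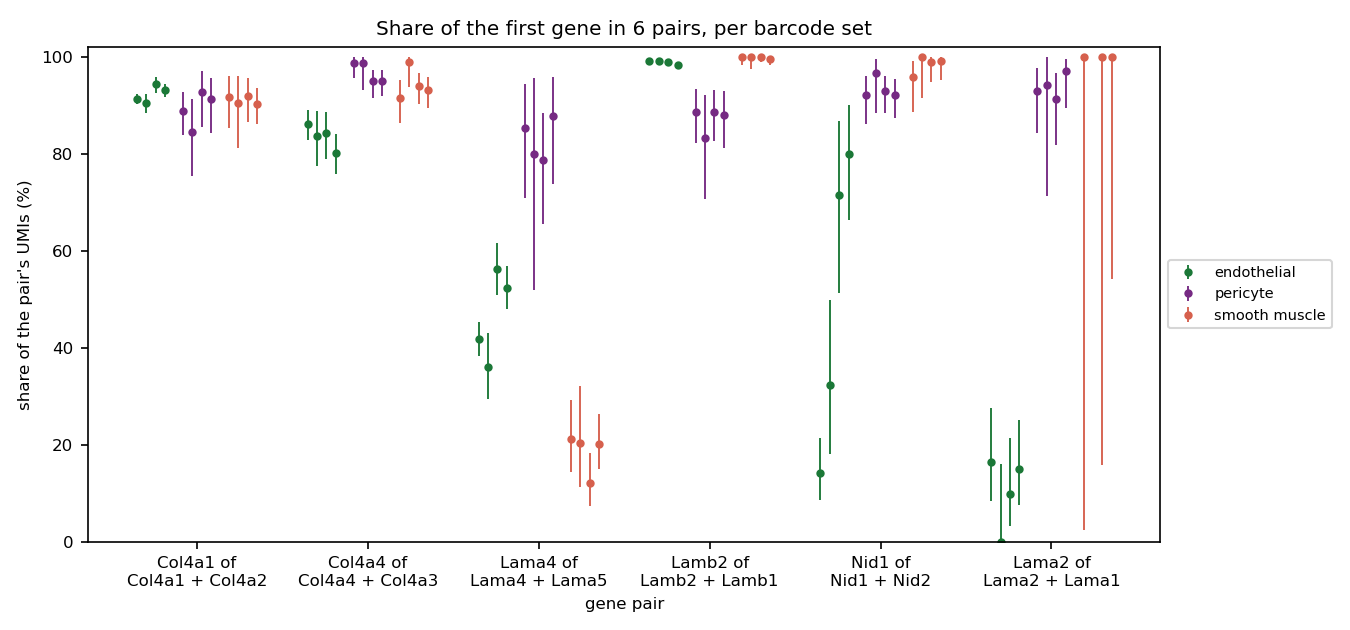
Share in percent of the first gene among the UMIs of 6 gene pairs, per gate and set, with exact 95% binomial intervals; points of a gate are sets 1 to 4 from left to right, and a set with no UMI of the pair has no point. Lama4 falls from pericytes over endothelium to smooth muscle, and the Nid1 share in endothelium runs from 14.1% in set 1 to 80.0% in set 4.

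Several other collagens were highest in pericytes in all 4 sets. Col6a2 and Col6a1, chains of the beaded filaments of collagen VI, were at 233, 183, 303 and 248 and at 111, 106, 122 and 98.0 CPM in pericytes of sets 1 to 4. Smooth muscle had 25.4 to 44.7 of Col6a2 and up to 5.95 of Col6a1. Col7a1, the anchoring fibril collagen known from skin, was at 150, 106, 223 and 211 in pericytes, where 83.7% of its gated UMIs lay, and a microRNA gene lies within it. Col5a2, a minor fibril chain, was at 14.1 to 56.7 there. Markers of fibroblasts, which also make these collagens, were unequal in the pericyte gate: Dcn and Lum had no UMI there, while Slc6a13, Foxd1, Tbx18 and Igf2 had 339, 366, 173 and 133 UMIs. Their part in these levels was not tested; 6 of the 15 fibroblast markers with a row were at 0 in the pericyte gate, and the sum over 10 of them ran from 656 to 957 CPM.

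Among the 10 classes smooth muscle led for Col18a1, the collagen that releases endostatin, and for Col14a1, a fibril-associated collagen. Col18a1 was at 214, 198, 158 and 137 CPM in smooth muscle and at 59.9, 21.2, 144 and 144 in pericytes, so the gates were close in sets 3 and 4. Endothelium had 5.87 to 9.04. Col14a1 was at 29.9, 35.1, 40.1 and 34.2 in smooth muscle on 86 UMIs and had 1 UMI in pericytes and 2 in endothelium. Its other gated UMIs were mainly in oligodendrocytes, at 0.263 to 0.704. Fibroblast markers were unequal in the smooth muscle gate too, where 6 of the 15 were at 0. Ogn, Tbx18, Foxd1 and Igf2 had 376, 197, 197 and 188 UMIs there. Their part in the smooth muscle levels was not tested.

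Few UMIs were found of the fibrillar collagens Col1a1 and Col3a1 and of Col12a1, and a handful of cells held much of them. Of the 362 Col1a1 UMIs in kept cells, 59.4% lay in 6 cells with at least 10 each, of which 3 were in the fibroblast gate and 3 ungated. Pericytes had no Col1a1 UMI in 1190833 UMIs, which allows up to 2.52 CPM, and smooth muscle had 0, 3, 10 and 8 in sets 1 to 4. The fibroblast gate held 14 cells in all. For Col3a1, 6 such cells, 1 in that gate and 5 ungated, held 30.2% of 411 UMIs, and smooth muscle had 17.6, 6.38, 50.6 and 41.9 CPM. Col12a1 had 60.1% of its gated UMIs in the fibroblast gate, with 2 cells holding 68 of the 207 UMIs in kept cells. Col1a1 overlaps the coding gene Sgca in RefSeq, the only overlap of a member with another coding gene.

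Fn1, which encodes fibronectin, a protein bound by integrins and part of the early vessel matrix, was the one member led by endothelium. It had 95.2% of its gated UMIs there, at 1572, 1163, 531 and 455 CPM in sets 1 to 4. Pericytes had 35.9, 21.2, 9.17 and 92.9 and smooth muscle 4 UMIs in all. Against endothelium, the pericyte and smooth muscle gates together were lower by a median log2 ratio of -7.01 (-7.47 to -3.99). In set 1 the neutrophil gate was higher than endothelium, at 1922, but its 188 UMIs came from 3 of 23 cells. In set 2 the neutrophil gate held 159 member UMIs, of which 1 was from members other than Sparc and Fn1. With the 4 sets summed, the neutrophil gate stood at 1048 CPM of Fn1 against 1062 in endothelium, so endothelium led narrowly.

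Endothelial Fn1 was 3.45-fold higher in set 1 than in set 4 (interval 3.31 to 3.60), and sets 1 and 2 lay above sets 3 and 4 without overlap. Haemoglobin and other red cell transcripts, from 4 genes, moved the same way in that gate: 76322, 110424, 7480 and 12314 CPM. With them left out of the total, Fn1 was at 1702, 1307, 535 and 461. The 10 border macrophage markers summed to 224, 323, 44.7 and 34.9, almost all of it Pf4, a gene also of platelets, while Cd163 was at 0 and Mrc1 had 5 UMIs. In endothelial cells with no UMI of that list, Fn1 was at 1551, 1209, 551 and 448. Set 1 was 3.69-fold above set 4 with the red cell transcripts left out of the total and 3.46-fold above it in the cells with no border macrophage UMI. Median UMIs per endothelial cell were 5755, 4684, 4568 and 3863, and averaging over cells instead of summing gave 1603, 1287, 539 and 476.

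Endothelium was compared with all non-vascular gated cells for the genes with at least 20 UMIs in the 2 classes of every set. A gene was called when it differed by at least 2-fold in the same direction in all 4 sets. Calls used the counts as they were, so a set in which 1 class had no UMI passed in favour of the other class. In the log2 ratios given, 3 counts stood in place of 0, so that set's ratio is a bound. Of 12140 genes so measured, 10.7% were called higher in endothelium and 20% lower. Of the 33 members 21 were measured, and 11 were called higher and 6 lower. Higher were Col4a2 (median log2 ratio 6.72), Fn1 (6.34), Lama1 (6.20), Lama4 (6.19), Lamb2 (6.02), Lama5 (5.76), Col4a1 (5.59), Col4a5 (5.06), Lamc1 (3.20), Col4a3 (2.37) and Col4a4 (1.60). Lower were the collagens of glia and ependyma: Col5a3, Col9a2, Col11a2, Col11a1, Col15a1 and Col16a1. Sparc, at -0.23, was higher than the other cells in sets 1 and 2 and lower in sets 3 and 4. The median over the members measured was 2.19 and over all genes measured -0.20.

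**Figure D4:**
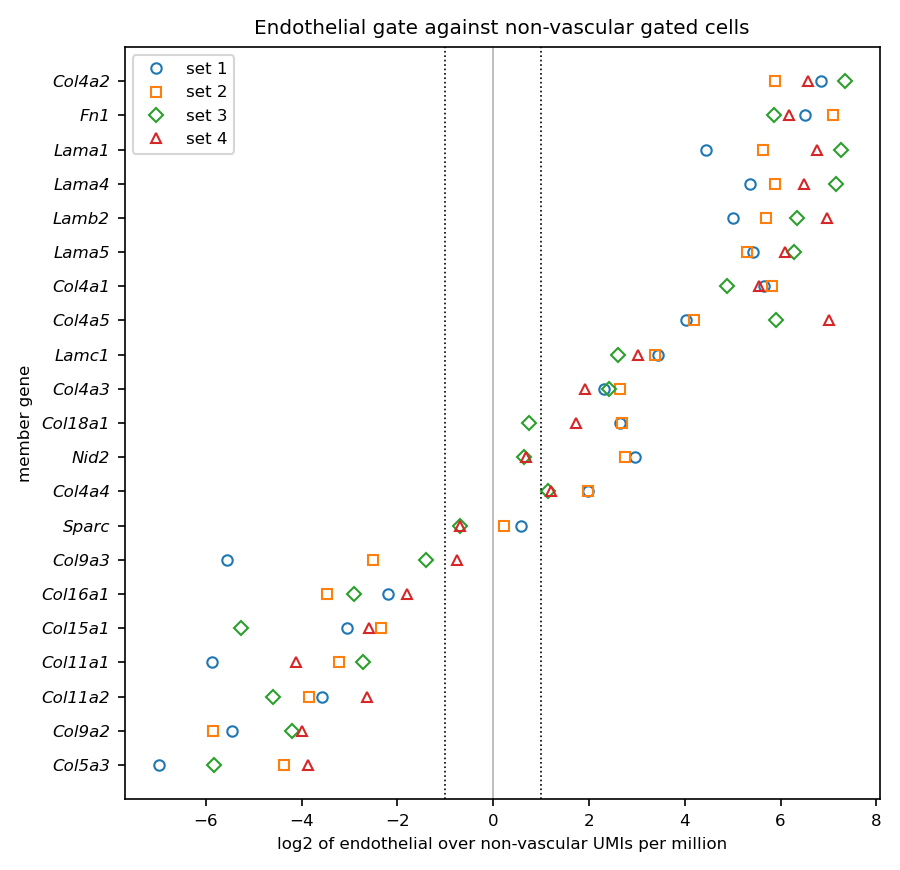
Log2 ratio of CPM in the endothelial gate over all non-vascular gated cells for the 21 members measured, with a symbol for each set; dotted lines mark 2-fold either way, and where a set had no endothelial UMI the floor of 3 counts was used. The symbols of all sets lie beyond the right line for the 11 members called higher, and those of Sparc lie on both sides of 0.

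Pericytes and smooth muscle together were set against endothelium by the same rule, with 8123 genes measured, of which 10.1% were called higher and 9.43% lower. Of the members 16 were measured, and Col6a2 (median log2 ratio 6.55), Nid1 (5.91), Col18a1 (4.08), Col4a4 (3.07) and Lama5 (1.63) were called higher and Fn1 lower. The other 10 were not called, among them Col4a1 (0.27), Col4a2 (0.64), Lamb2 (0.84), Lama4 (0.73), Sparc (0.46) and Col4a5 (0.32). The rule turns on set 2, the set with the fewest such cells: without it, 21 members were measured and 10 called higher. Leaving out a set eases the rule for every gene, and the share of all genes called was computed with all 4 sets only. Lama5 was not called with the scaling of edgeR's trimmed means, which gave 1.26. That scaling moved the median of all genes from 0.200 to -0.154.

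For smooth muscle against pericytes, 3053 genes were measured and 8.16% were called higher and 6.19% lower. Lama5 (median log2 ratio 3.12) and Col4a5 were higher in smooth muscle, the latter with pericytes at 0 in sets 2 and 3. Col6a2 (-2.90), Lamc1 (-1.74), Nid1 (-1.74) and Lama4 (-1.09) were lower, of 12 members measured. With trimmed-mean scaling, which moved the median of all genes from -0.0843 to 0.203, Lamc1 at -1.49 and Lama4 at -0.88 were not called. Lama4, at least 2-fold lower by a narrow margin in sets 2 and 4, was also not called with all barcodes, with clusters or with averages over cells. Without set 2, 7 members were called lower, with no share over all genes computed for that setting. The median over the members measured was -0.94 here and 0.92 in the comparison with endothelium, against -0.08 and 0.20 over all genes.

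Sparc, a collagen-binding glycoprotein made by many growing tissues, gave 201394 of the 283674 member UMIs. Microglia, the resident macrophages of the brain, held 83.4% of its gated UMIs, at 991, 1060, 3806 and 4092 CPM in sets 1 to 4. Sets 3 and 4 were far above sets 1 and 2, and set 4 exceeded set 1 by 4.13-fold (4.05 to 4.21). In pericytes Sparc was at 1655, 1573, 1675 and 1945, in smooth muscle at 900, 957, 1210 and 1088 and in endothelium at 827, 666, 1028 and 1226, so the highest class was pericytes in sets 1 and 2 and microglia in sets 3 and 4. Pericytes and smooth muscle together differed between sets by at most 1.19-fold.

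Oligodendrocyte transcripts in the microglial gate moved with the microglial Sparc level: the 13 markers, none at 0, summed to 371, 425, 777 and 744 CPM. In oligodendrocytes themselves, Sparc was at 24.3, 25.7, 39.6 and 47.1. In microglia with no UMI of that list Sparc was at 875, 966, 3533 and 3575, a 4.08-fold difference between sets. These were 551, 644, 56 and 133 of 2566, 3735, 1766 and 3362 cells, with a median of 3431, 3624, 2480 and 2422 UMIs against 4678, 4446, 6632 and 5668 in the whole gate. The same sets were apart in clustering, where 1 microglial cluster held 22 and 43 cells of sets 1 and 2 and 1529 and 2941 of sets 3 and 4.

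**Figure D5:**
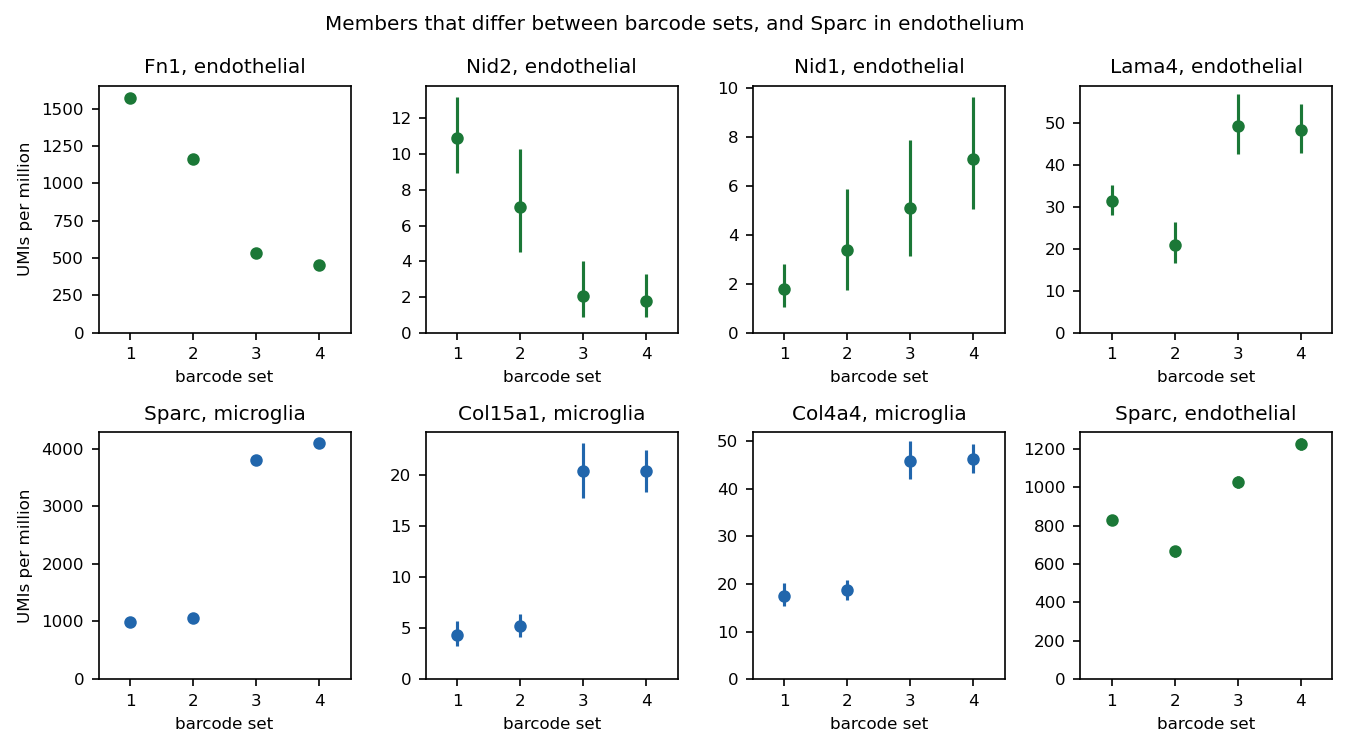
CPM by barcode set for Fn1, Nid2, Nid1, Lama4 and Sparc in the endothelial gate (green) and for Sparc, Col15a1 and Col4a4 in the microglial gate (blue), with exact 95% Poisson intervals, smaller than the points for Fn1 and Sparc. Microglial Sparc runs from 991 in set 1 to 4092 in set 4 and endothelial Fn1 from 1572 in set 1 to 455 in set 4.

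Other members differed between sets within a gate, by the rule that the highest set is at least 2-fold over the lowest with at least 50 UMIs in those sets together. In endothelium 25.3% of 8441 genes passed it and 5 of 15 members did: Fn1, Nid2, Nid1, Lama4 and Lama1. Nid2 was 6.16-fold higher in set 1 than in set 4 (3.23 to 13.2), on 110, 25, 8 and 10 UMIs in sets 1 to 4. Nid1 was 3.97-fold higher in set 4 than in set 1 (2.22 to 7.35), so the nidogens moved in opposite directions in this gate. The Nid1 values rest on 18, 12, 20 and 40 UMIs. Summed pericyte markers in the endothelial gate rose as well, at 62.5, 85.8, 134 and 258 CPM in sets 1 to 4. The part of pericyte transcripts in these Nid1 levels was not tested. Lama4 was 2.34-fold higher in set 3 than in set 2, and Lama1 2.11-fold higher in set 3 than in set 1. With red cell transcripts left out of the total, Lama1 was at 6.02, 6.62, 11.8 and 11.3, which is 1.97-fold. Col4a1, Lamb2, Lama5 and Lamc1 stayed within 2-fold.

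In the pericyte and smooth muscle gates together 10.8% of 4405 genes passed, and of 15 members Col3a1 (11.4-fold, set 3 over set 2), Col7a1 (2.28-fold) and Lama2 (2.11-fold) did. Each of the 3 was lowest in set 2, with 2, 15 and 16 UMIs. Nid1, Col18a1, Lamb2, Col4a4 and Sparc were within 1.34-fold in the summed gates. For Col18a1 the sum, at 157, 143, 153 and 139 CPM, hides the unlike values of each gate given above.

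In microglia 14.8% of 9668 genes passed and 7 of 9 members did: Sparc, Col15a1, Col4a4, Col4a3, Fn1, Lamc1 and Col9a2. Col15a1, a multiplexin collagen usually placed in vascular membranes, had 88.8% of its gated UMIs in microglia, at 4.33, 5.17, 20.4 and 20.4 CPM, and 2 non-coding RNA genes overlap it in RefSeq. In microglia with no oligodendrocyte marker UMI it was at 2.90, 5.09, 22.8 and 19.2 on 6, 12, 4 and 8 UMIs. Col4a4 was at 19.8, 18.3, 39.8 and 21.6 in those cells, on 41, 43, 7 and 9 UMIs. Col9a2 was at 0.571, 0.805, 5.07 and 5.36 in microglia, and in those marker-free cells at 2.42, 0.424, 0 and 0. The latter rest on 5, 1, 0 and 0 UMIs, too few to compare sets.

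Col5a3 and Col11a2, minor chains of fibrils in other tissues, were in microglia at 22.2, 21.2, 29.2 and 31.5 and at 16.8, 18.7, 22.2 and 25.8 CPM. Microglia held 85.4% of the gated Col5a3 UMIs and 78.3% of those of Col11a2. The level of Col5a3 in pericytes, 12.0 to 42.3 on 35 UMIs, overlapped that of microglia, while Col11a2 was highest in microglia in all sets.

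Oligodendrocytes, the myelinating cells, had their own small set. Col9a2 was at 39.1, 41.0, 24.1 and 28.2 CPM, Col16a1 at 30.4, 22.9, 22.8 and 24.8 and Col9a3 at 13.3, 12.1, 10.9 and 11.6 in sets 1 to 4. The first and last encode chains of collagen IX and the other a fibril-associated collagen. Between 89.0% and 93.0% of the gated UMIs of each of these genes were from oligodendrocytes. Against microglia, by the 2-fold rule in every set, 27.5% of 10857 genes were higher in oligodendrocytes and 18.5% lower. Of 15 members measured, these 3 and Nid2, Col18a1, Col4a1 and Lamc1 were higher and Sparc, Col4a4, Col4a3, Col5a3, Col11a2 and Col15a1 lower. Between sets of oligodendrocytes, 9.21% of 9616 genes passed 2-fold and of 11 members Col5a3 (3.26-fold) and Fn1 (2.88-fold) did. In RefSeq a non-coding RNA gene overlaps each of Col9a2, Col16a1 and Col18a1; in all, 14 of the 33 members overlap another gene.

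Among the 10 classes ependymal cells led for Col11a1 and Col8a2. Col11a1, a fibril chain of cartilage, was at 244, 252, 495 and 769 CPM, with 92.8% of its gated UMIs there. The 61, 63, 21 and 15 ependymal cells gave 260, 245, 124 and 109 of its UMIs, and no pericyte or smooth muscle cell had any. Col8a2, a short-chain collagen, was at 24.4, 20.6, 23.9 and 49.4 on 59 UMIs. Another 21.3% of its gated UMIs lay in the 14 cells of the fibroblast gate, at 240 CPM, above the ependymal level.

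Enzymes, receptors and proteases of the matrix were counted by the same rule, as lists with 120 entries of which 6 had no row. In endothelium against non-vascular cells the median log2 ratio was 0.38 for collagen processing, -0.15 for receptors, 0.36 for proteases and inhibitors and 3.40 for other matrix genes, against -0.20 over all genes. In the pericyte and smooth muscle gates against endothelium the medians were 0.63, 1.92, 2.18 and 1.28, against 0.20. Ratios given below for Fbln5, Itga8, Timp4, Emilin1, Mmrn2, Ltbp1 and, against endothelium, Vwf include sets at 0. Of 13 measured genes for collagen processing, 5 were higher and 1 lower in endothelium than in non-vascular cells. Serpinh1, the collagen chaperone, was called higher at 114, 98.4, 173 and 184 CPM against 8.47, 7.08, 4.98 and 5.13. In pericytes and smooth muscle it was at 309, 290, 395 and 400. There 4 genes of the list were higher than in endothelium and 1 lower, and Lox, which crosslinks collagen and elastin, was highest in smooth muscle at 258, 342, 210 and 313 against 38.9, 28.2, 21.4 and 15.5 in pericytes. Of the list's most abundant genes, P4ha1, P4hb and Colgalt1 were called neither in endothelium against non-vascular cells (median log2 ratios -0.71, -0.45 and -0.44) nor in the pericyte and smooth muscle gates against endothelium. The largest called ratios over non-vascular cells were those of Tgm2 (5.79), Serpinh1 (4.46), Lox (3.34) and P4ha2 (3.06). Those over endothelium were Lox (5.66), P3h3 (4.00), Bmp1 (1.47) and, lower, Tgm2 (-1.63).

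Of the receptors for matrix, 22 were measured against non-vascular cells, with 7 higher and 8 lower in endothelium, and 15 against endothelium, with 10 higher and 2 lower in the pericyte and smooth muscle gates. Itga6, a laminin receptor subunit, was at 230, 184, 335 and 373 CPM in endothelium and at 8.86, 11.0, 5.00 and 9.27 in the other gates summed. Itgb1, the common beta subunit, was at 270, 233, 273 and 301 against 881, 811, 826 and 783. Itga7, another laminin receptor subunit, was at 169, 200, 244 and 265 in those gates and at 0.595 to 5.49 in endothelium. Itga6 was thus higher in endothelium and Itga7 in the cells around it, in every set. The other most abundant receptors were Ddr1, lower in endothelium than in non-vascular cells (median log2 ratio -5.80), and Ilk, not called there (-0.34) and higher around the endothelium (2.22). Bcam (7.17), Itga1 (6.69) and Sdc3 (6.09) had the largest called ratios in endothelium and Itgb8 (-6.02) the lowest. Itga8 (7.27), Sdc2 (7.25) and Sdc4 (7.06) had the largest in the pericyte and smooth muscle gates against endothelium; Sdc4 (4.43) and Itga8 (2.47) were also higher in smooth muscle than in pericytes and Sdc3 (-2.79) lower.

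Of the proteases and inhibitors, 6 of 15 measured were higher and 5 lower in endothelium than in non-vascular cells, and 9 of 13 were higher and 2 lower in the pericyte and smooth muscle gates than in endothelium. Plat, the tissue plasminogen activator, was at 2055, 1589, 979 and 1033 CPM in endothelium and at 73.1, 83.5, 59.0 and 104 in the other gates. Ctsk, a collagen-degrading cathepsin, was at 171, 141, 116 and 126 in pericytes and at 6.62 to 9.57 in smooth muscle. Timp2 (-4.14) was lower in endothelium than in non-vascular cells, and Timp3 (6.27), Reck (5.21), Adamts1 (4.44) and Adam10 (1.35) were higher. Against endothelium, Timp4 (6.67), Serpine2 (4.89), Adamts1 (2.18) and Timp2 (1.84) were higher in the pericyte and smooth muscle gates and Adam10 (-2.29) lower. Adamts1 (4.18), Timp4 (2.98) and Timp2 (1.33) were higher in smooth muscle than in pericytes and Reck (-2.75) lower.

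Among other matrix genes, 16 of 25 were higher and 7 lower in endothelium than in non-vascular cells, and 8 of 18 were higher and 5 lower in the pericyte and smooth muscle gates than in endothelium. Vwf, the clotting factor carrier stored in endothelium, was at 1062, 944, 593 and 559 CPM there. Vtn, vitronectin, was at 3869, 3265, 4725 and 4439 in pericytes and at 385, 201, 540 and 408 in smooth muscle. Mgp, which inhibits calcification, was at 4958, 5991, 4331 and 4478 in smooth muscle and at 2532, 2758, 2057 and 1800 in pericytes. Fbln5 (median log2 ratio 8.36), Vwf (7.99), Tinagl1 (7.30) and Mgp (4.35) were higher in endothelium than in non-vascular cells and Edil3 (-6.62) and Hapln2 (-6.01) lower. Vtn (6.90), Emilin1 (6.27) and Mgp (4.05) were higher, and Vwf (-7.04) and Mmrn2 (-6.40) lower, in the gates around endothelium than in it. Ltbp1 (3.91) and Tinagl1 (2.30) were higher in smooth muscle than in pericytes and Vtn (-3.39) and Agrn (-2.02) lower. Between smooth muscle and pericytes, 2 of 7 processing genes, 2 of 11 receptors, 5 of 11 proteases and inhibitors and 2 of 10 other matrix genes were higher in smooth muscle, and 0, 1, 2 and 2 were lower.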

How the data were processed

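UMI counts were deposited by the authors as 1 sparse gene-by-barcode matrix, whole numbers with no normalization. Per the file headers it was written by Cell Ranger 5.0.0, and the submitters' processing notes name Cell Ranger, STAR and the build Rnor_6.0; the annotation and the use of strand are not given in the sources used. Per the labels' protocols, tissue was dissociated, red cells were lysed and Chromium 3' v3 libraries made. Totals were 43640627, 46669201, 36242408 and 54295520 UMIs in sets 1 to 4. No label ties a barcode suffix to a title, so no contrast of the 4 titles was computed.

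Cells were kept with at least 500 UMIs, 300 genes and at most 20% mitochondrial UMIs, and 942 doublets called with Scrublet (in scanpy 1.11.5) were removed. A cell was gated to a marker list when 3 or more of its markers, and 25% of them, carried a UMI, with a share 1.5 times that of the next list (related lists exempt). Raw UMIs were summed per gate and set and divided by their total. Each call needs a 2-fold difference in every set; with 1 library per set there is no test. A count of 0 allows up to 3 counts. Calls were also run on simulated data with counting error only and planted changes well above 2-fold. That run cannot show how the rule treats differences between cells or libraries. edgeR 4.0.16 gave trimmed-mean (TMM) factors only, and numpy 2.4.6, scipy 1.17.1 and pandas 2.3.3 the rest. Members with at least 1000 gated UMIs and all collagen IV, laminin, nidogen, Fn1 and Sparc members are given by set, and the other members given by set were chosen after their values were seen; from each matrix list the 4 genes with most UMIs and up to 4 called genes with the largest median log2 ratio are named, except 1 gene that is not reported here. Alternatives were all barcodes, doublets kept, a stricter gate margin (2 times), Leiden clusters, other UMI minimums, cells thinned to 1000 UMIs, averages over cells, TMM and leaving out each set. The comparison of oligodendrocytes with microglia, the spread within those gates and the cells without other types' markers were added after seeing the data. The members and lists were chosen with earlier results of these data known. Gene lists for processing and crosslinking, receptors, proteases and inhibitors, and other matrix genes are given whole as counts. Symbols of all 33 members are in the RefSeq table of GRCr8, used for names, neighbours and start regions.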

Additional observations from a re-analysis of the deposited data

How the results depend on the processing

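No paired analysis was possible because each title has 1 library and no set is tied to a title. No called ratio of a member changed direction under the alternatives that gave it a value. Thinning to 1000 UMIs leaves fewer members measured: against non-vascular cells 5 were then higher and 3 lower, 2 were higher in the pericyte and smooth muscle gates than in endothelium, 0 higher and 1 lower in smooth muscle than in pericytes, 2 higher in oligodendrocytes than in microglia, and 3, 1, 3 and 1 passed 2-fold between sets in endothelium, the pericyte and smooth muscle gates, microglia and oligodendrocytes. With a minimum of 1 UMI, which lets in members at or near 0, the counts were 14 higher and 2 lower in the pericyte and smooth muscle gates than in endothelium, 12 lower in smooth muscle than in pericytes, and 21, 15, 27 and 22 between sets in those gates. A minimum of 50 UMIs left 1 higher and 1 lower in smooth muscle, and TMM scaling left 2 lower. Clusters in place of gates gave 8 higher in the pericyte and smooth muscle clusters than in endothelium, and 10 and 4 between sets in endothelium and oligodendrocytes. The stricter margin left 1 between sets in the pericyte and smooth muscle gates, and oligodendrocytes had 6 with all barcodes and 5 with doublets kept. Leaving out 1 set at a time gave 11 to 13 higher and 6 to 7 lower in endothelium, 5 to 10 higher and 1 lower in the pericyte and smooth muscle gates, 2 higher and 4 to 7 lower in smooth muscle than in pericytes, and 7 higher and 6 lower in oligodendrocytes than in microglia; the 10 and the 7 lower were without set 2. Shares over all genes were computed under the main setting only. The member counts under the alternatives therefore have no background share and show only how the counts depend on the setting. Causes were not tested beyond these constructions. Depth limits members with few UMIs: of 33, 21 were measured in endothelium against non-vascular cells, 16 in the pericyte and smooth muscle gates against endothelium and 12 in smooth muscle against pericytes.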
